A study of Mus musculus with 4 samples.

Results

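The genes of the protein channel of the endoplasmic reticulum and of the signal peptidase next to it were followed in AXT tumours with and without HIF-1alpha, a transcription factor that cells stabilise when oxygen is low. They were taken from the deposited table by gene symbol, 10 of its 55487 genes: Sec61a1, Sec61b, Sec61g, Sec62, Sec63, Ssr1, Ssr2, Ssr3, Spcs2 and Spcs3. AXT is a mouse osteosarcoma line made by overexpressing c-MYC in bone marrow stromal cells. The 3 knockout libraries came from the lines labelled HIF-1alphaKO AXT1-1, HIF-1alphaKO AXT1-2 and HIF-1alphaKO AXT2, genotype HIF-1alpha KO, and the 1 control library from the line labelled Mock AXT, genotype WT. For every library cells in matrigel had been placed in C57BL/6scid mice, which lack mature T and B cells but keep other host cells, and whole tumours were taken 1 day later. The knockout columns are named c11, c15 and c22, and the sources used here do not say which line each holds. How the knockout was made, the age of the mice, and whether each library is 1 animal or a pool were not given either, so p-values measure only the spread between these libraries.

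Proteins that are secreted or built into membranes carry a signal sequence that directs the ribosome to the endoplasmic reticulum, where the chain passes through the Sec61 channel. Sec62 and Sec63 sit beside the channel and help chains that enter with the aid of the lumenal chaperone BiP, and the translocon-associated protein complex, encoded by the Ssr genes, helps weak signal sequences open it. The signal peptidase complex then cuts the signal sequence off. In osteoblast-like cells, which secrete much collagen, the same machinery handles the bone matrix proteins, and several of its genes are known targets of the unfolded protein response.

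Knockout libraries c11, c15 and c22 held 12910058, 13193264 and 13081007 counts and the mock library 12383719. Levels are in CPM, the usual count relative to library size, after scaling with the TMM method of edgeR, and errors are the SD over the 3 knockout libraries. There was 1 mock library, so mock values carry no error. Hif1a itself was at 103, 98.9 and 22.7 CPM in libraries c11, c15 and c22, against 107 CPM in mock, so its RNA level was near mock in c11 and c15. A count over the whole gene does not show whether intact protein was made. The osteoblast transcription factor genes Runx2 and Sp7 were detected in every library, at 118 to 139 and 64.8 to 144 CPM in knockout tumours and at 244 and 177 CPM in mock. The 9 osteoblast lineage markers summed to 2101 to 5467 CPM in knockout tumours and 1994 CPM in mock. Of the 9, 6 were under the mock level in every knockout library, among them the late marker Bglap at 0 to 1.09 CPM against 1.45 CPM. Bglap had only 0, 3 and 14 counts in libraries c11, c15 and c22, against 18 in mock, so its side in c22 may reflect counting error. The collagen gene Col1a1 had the highest level of the 9 in every library, so it weighed most in that sum. It was the 1 marker above mock in all 3, at 1888, 1095 and 4774 CPM in libraries c11, c15 and c22, against 861 CPM in mock. Alpl was on both sides, at 31.7, 165 and 32.4 CPM against 35.0 CPM. Of 9 macrophage markers 8 were under the mock level in every knockout library, and the 9 summed to 243 to 442 CPM in knockout tumours and 803 CPM in mock. Lyz2 weighed most in that sum, at 140 to 270 CPM in knockout libraries and 553 CPM in mock. Summed erythroid markers were at 1.61 to 41.7 CPM in knockout tumours and 116 CPM in mock, with 5 of 6 under the mock level in every knockout library. The 7 skeletal muscle markers all lay below mock in all 3, and they summed to 1.44 to 21.5 CPM in knockout tumours and 101 CPM in mock. Host fibroblast markers summed to 28.4 to 106 CPM in knockout tumours and 124 CPM in mock, with 3 of 6 below mock in all 3. Of these 6, Pdgfra was at 5.35, 6.99 and 64.8 CPM in libraries c11, c15 and c22, against 15.2 CPM in mock. It weighed most in the c22 sum. Endothelial markers summed to 1.15 to 2.36 CPM against 4.19 CPM, with 4 of 5 below mock in all 3. Plasma and B cell markers summed to 2.75 to 5.44 CPM against 3.55 CPM, with Jchain and Mzb1 at 0 in mock. Only 2 of the 5 endothelial and 1 of the 4 plasma and B cell markers had enough counts to be tested. Their sides of mock may therefore reflect counting error. The part of these host cells in the results below was not tested, and in whole tumours fewer cells of a type and less RNA per cell cannot be told apart.

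Most of the 10 genes had modestly higher RNA levels in the knockout libraries than in the mock library, and no single gene passed the test. The 3 knockout libraries all lay above mock for 6 genes, Sec61a1, Sec61b, Sec62, Sec63, Spcs2 and Spcs3, and 0 of the 10 lay below mock in all 3. Across the 15706 genes tested, 21.4% lay above mock in all 3 knockout libraries and 22.2% below it. Above mock in all 3 were also 22.1% of the 4770 genes whose mean reached 50 CPM, as that of all 10 did. Fitted log2 fold changes (knockout over mock) ran from -0.07 for Ssr1 to 0.58 for Spcs2, with a median of 0.35. They were above 0 for 9 of the 10, against 54.5% of all genes tested, whose median was 0.05. The 10 genes were chosen with earlier results of these data known, and all ratios share the 1 mock library. These shares are therefore a description and not a test. All 10 genes were tested, and edgeR's quasi-likelihood test called 0 of them at an adjusted p of 0.05, while it called 0% of all genes as higher and 0.00637% as lower. At an unadjusted p under 0.05 there were also 0 of the 10, against 1.12% of all genes as higher and 2.56% as lower. DESeq2 called 0 of the 10, against 0.306% of all genes as higher and 0.42% as lower. Limma-voom called 0 of the 10, and of all genes it also called 0 as higher and 0 as lower.

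**Figure D1:**
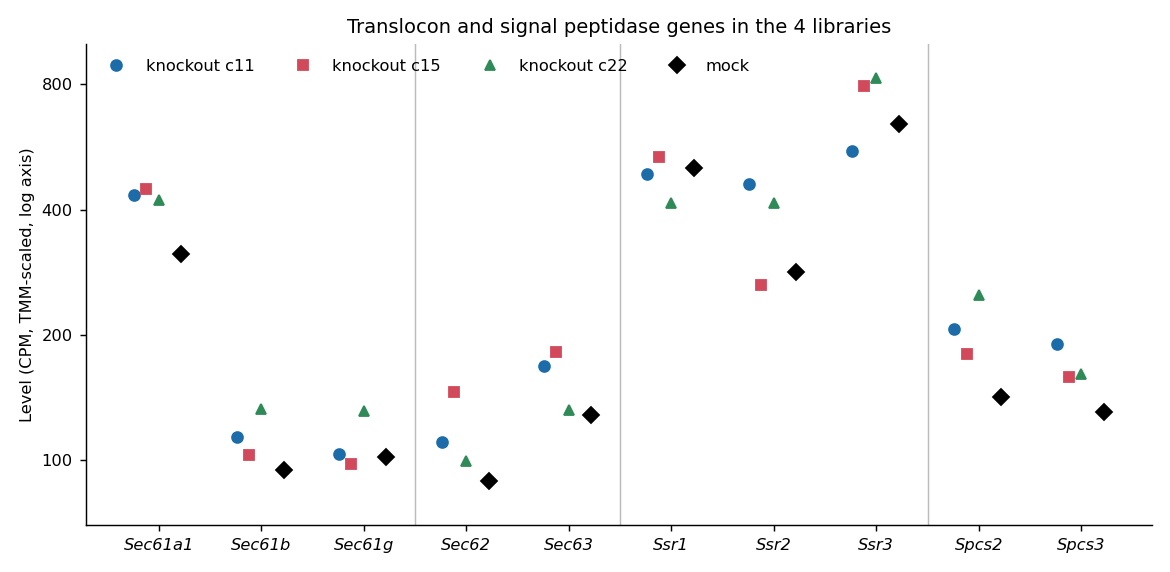
Level of each of the 10 genes (CPM, TMM-scaled, log axis) in knockout libraries c11, c15 and c22 and in the mock library, 1 point per library, with grey lines between the complexes. All 3 knockout points stand above the mock diamond for 6 genes, and for the 3 Ssr genes and Sec61g they stand on both sides of it.

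Promoter sequences were looked at because the endoplasmic reticulum stress response acts on many genes of this organelle through short promoter elements. RefSeq windows of 300 bases (250 before and 50 after the start, GRCm38.p6) were found for 7 of the 10 genes: Sec61b, Sec61g, Sec62, Sec63, Spcs2, Ssr1 and Ssr3. The full stress response element (CCAAT, then 9 bases of any kind, then CCACG) was found in none of the 7 on either strand, and in 0.119% of all 32851 windows. Among the genes for endoplasmic reticulum chaperones and folding enzymes it was found for 7 of the 15 with a window. The second form of the element, named ERSE-II, the letters TGACGTGG and the letters TGACGT were found in 0.0365%, 0.676% and 7.51% of all windows and in none of the 7. The second box of the full element, CCACG, occurred in 4 of the 7 (Sec63, Spcs2, Ssr1 and Ssr3) and in 32.8% of all windows. The letters ACGTG, the core of sites that HIF can bind, occurred in 4 of the 7 (Sec62, Sec63, Ssr1 and Ssr3) and in 19.6% of all windows, and in Sec63, Ssr1 and Ssr3 it overlaps CCACG. A match in these letters is a description and does not show that a factor binds.

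The windows below show the chaperone gene Hspa5 with the full element, Ssr1, whose knockout libraries lay on both sides of mock, with 2 stretches where these short motifs overlap, Sec62 with ACGTG on both strands, and Spcs2, which had the highest fold change of the 10, with CCACG alone. Capitals mark the full element and the letters CCACG or, likewise, the letters ACGTG on either strand. The Hspa5 window is chr2:34771840-34772139 on the plus strand, that of Ssr1 chr13:37994159-37994458 on the minus strand, that of Sec62 chr3:30792626-30792925 on the plus strand and that of Spcs2 chr7:99858834-99859133 on the minus strand. The Spcs2 window lies inside the span of the gene in the deposited table, chr7:99837569-99863462.
Hspa5: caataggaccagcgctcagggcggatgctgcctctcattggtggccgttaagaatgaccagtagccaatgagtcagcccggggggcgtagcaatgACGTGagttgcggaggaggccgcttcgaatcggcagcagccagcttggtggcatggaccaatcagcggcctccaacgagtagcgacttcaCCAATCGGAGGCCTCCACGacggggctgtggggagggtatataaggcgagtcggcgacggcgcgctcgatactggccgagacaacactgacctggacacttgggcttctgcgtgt
Ssr1: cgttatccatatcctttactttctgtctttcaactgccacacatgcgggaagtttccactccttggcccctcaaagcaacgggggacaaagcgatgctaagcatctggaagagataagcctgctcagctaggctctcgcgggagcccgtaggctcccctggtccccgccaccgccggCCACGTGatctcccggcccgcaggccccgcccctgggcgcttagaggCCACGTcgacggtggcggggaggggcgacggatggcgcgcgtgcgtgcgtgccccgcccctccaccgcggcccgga
Sec62: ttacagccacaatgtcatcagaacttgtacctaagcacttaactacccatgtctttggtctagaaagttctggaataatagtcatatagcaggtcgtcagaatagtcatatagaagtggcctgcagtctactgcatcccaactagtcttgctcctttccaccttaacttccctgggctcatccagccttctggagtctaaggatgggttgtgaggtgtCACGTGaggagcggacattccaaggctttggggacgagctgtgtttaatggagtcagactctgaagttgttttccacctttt
Spcs2: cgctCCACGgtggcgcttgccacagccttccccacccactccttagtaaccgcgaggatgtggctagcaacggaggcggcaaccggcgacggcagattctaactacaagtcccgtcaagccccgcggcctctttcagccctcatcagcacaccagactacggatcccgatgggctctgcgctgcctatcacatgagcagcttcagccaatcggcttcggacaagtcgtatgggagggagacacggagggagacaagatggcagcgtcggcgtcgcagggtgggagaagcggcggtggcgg

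The channel itself is made of 3 subunits, and the gene of its pore-forming subunit had the most even difference of the 10. Sec61a1 (ENSMUSG00000030082, chromosome 6, 88503579 to 88518905, GRCm38, minus strand), which encodes the pore, was at 433, 449 and 422 CPM in libraries c11, c15 and c22, against 313 CPM in mock. The knockout libraries lay close together, well above mock. Their mean of 435 ± 13.8 CPM (SD, n = 3) was 1.39 times the mock level (log2 fold change 0.47, SE 0.28, edgeR adjusted p = 1.00). Its coefficient of variation over the knockout libraries was 3.18%, the smallest of the 10.

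The small subunit genes had smaller differences. Sec61b (chromosome 4, 47474658 to 47483242, plus strand), whose product spans the membrane once beside the pore, was at 114, 103 and 133 CPM in libraries c11, c15 and c22, against 94.6 CPM in mock. All 3 knockout libraries were above mock, with c15 nearest to it, and the log2 fold change was 0.30 (SE 0.32), or 0.20 without c22. Sec61g (chromosome 11, 16500530 to 16508484, minus strand), which encodes the clamp that holds the pore together, was at 104, 97.9 and 132 CPM in the knockout libraries, against 102 CPM in mock. Here c22 stood above mock while c11 and c15 were on either side of it. The log2 fold change was 0.12 (SE 0.33), and it was 0.21 without c15 and -0.01 without c22.

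Sec62 and Sec63, the partners of the channel for entry with the help of BiP, both had their highest level in c15 and their lowest knockout level in c22. Sec62 (chromosome 3, 30792875 to 30821263, plus strand) was at 110, 146 and 99.7 CPM in libraries c11, c15 and c22, against 89.4 CPM in mock. Sec63 (chromosome 10, 42761496 to 42832514, plus strand), whose product recruits BiP through a J domain, was at 169, 182 and 132 CPM in the knockout libraries, against 128 CPM in mock. For both genes the knockout libraries did not overlap mock, but c22 was close to it. For Sec63 the log2 ratio of c22 to mock was 0.04, with a 95% counting interval of -0.06 to 0.14. Fitted log2 fold changes were 0.41 (SE 0.36) for Sec62, or 0.23 without c15, and 0.33 (SE 0.33) for Sec63.

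The 3 genes of the translocon-associated protein complex did not share a pattern, although their products form 1 complex. Ssr1 (chromosome 13, 37966605 to 37994217, minus strand), the alpha subunit gene, was at 486, 536 and 416 CPM in libraries c11, c15 and c22, against 503 CPM in mock. Ssr2 (chromosome 3, 88575876 to 88588419, plus strand), the beta subunit gene, was at 461, 264 and 415 CPM, against 283 CPM in mock. Ssr3 (chromosome 3, 65379655 to 65392623, minus strand), the gamma subunit gene, was at 553, 795 and 828 CPM, against 643 CPM in mock. Each gene had a different knockout library below mock and at the bottom of its order: c22 for Ssr1, c15 for Ssr2 and c11 for Ssr3. For Ssr1, c11 was also slightly below mock.

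Those 3 low values were beyond counting error. The log2 ratio to mock was -0.28 (95% counting interval -0.33 to -0.22) for Ssr1 in c22, -0.10 (-0.17 to -0.03) for Ssr2 in c15 and -0.22 (-0.26 to -0.17) for Ssr3 in c11. Over all 30 ratios of 1 gene in 1 knockout library to mock, 23 had an interval above 0, 3 had one below 0 and 4 included 0. Such an exact binomial interval covers counting error only and compares 2 libraries, not the conditions. Across the whole table each knockout library differed from mock far beyond counting error (chi-square per gene 44.29 to 68.65). The intervals were not computed for other genes, so these counts are a description and not a result particular to the 10. Fitted log2 fold changes were -0.07 (SE 0.29) for Ssr1, 0.43 (SE 0.40) for Ssr2 and 0.17 (SE 0.34) for Ssr3, each of which moved with the libraries used. Ssr1 was at -0.16 without c15 and 0.02 without c22, Ssr2 at 0.27 without c11, and Ssr3 at 0.34 without c11, 0.10 without c15 and 0.07 without c22. Ssr2 had the widest spread of the 10 over the knockout libraries, 27.1%.

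**Figure D2:**
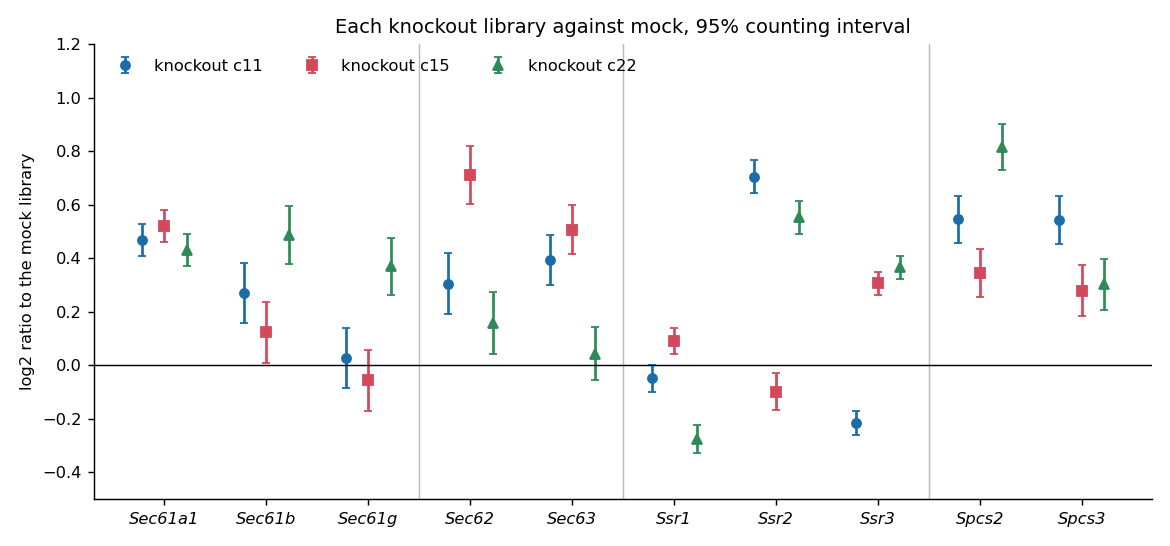
Log2 ratio of each knockout library to the mock library for the 10 genes, with 95% exact binomial counting intervals and a line at 0. The signal peptidase genes, Sec61a1, Sec61b and Sec62 have all 3 intervals above 0, whereas each Ssr gene has 1 interval below 0, in a different library.

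Both signal peptidase genes lay above mock in all 3 knockout libraries, by log2 ratios from 0.28 to 0.81. Spcs2 (chromosome 7, 99837569 to 99863462, minus strand), an accessory subunit gene, was at 207, 180 and 250 CPM in libraries c11, c15 and c22, against 142 CPM in mock. Its mean of 212 ± 35.0 CPM (SD, n = 3) was 1.5 times the mock level (log2 fold change 0.58, SE 0.33), the highest fold change of the 10. Spcs3 (chromosome 8, 54520433 to 54529998, minus strand), also an accessory subunit gene, was at 190, 158 and 161 CPM, against 131 CPM in mock. Its mean of 170 ± 17.7 CPM was 1.30 times the mock level (log2 fold change 0.38, SE 0.31).

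The 95% intervals of the fitted fold changes show what these 4 libraries could resolve. For Spcs2 the interval of the fold ran from 0.847 to 2.64, for Sec61a1 from 0.865 to 2.23, and for Ssr1 from 0.579 to 1.57. All 10 intervals included no difference, and none reached a fold above 2.66, the upper bound for Ssr2. The missing calls therefore do not show that the levels were alike. The fit takes the spread of mock to equal that among the knockout libraries.

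**Figure D3:**
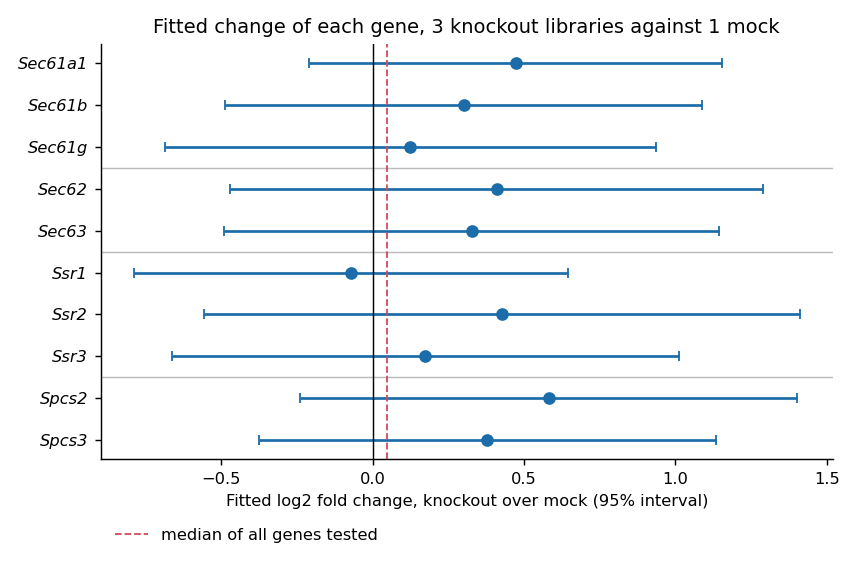
Fitted log2 fold change (knockout over mock) of each gene with its 95% interval from edgeR's quasi-likelihood fit, with the median of all genes tested as a dashed line. The intervals of all 10 genes include 0, and 9 of the 10 estimates lie to its right.

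Among themselves the 10 genes followed several orders of the knockout libraries. Sec61a1, Sec62, Sec63 and Ssr1 had the order c15, c11, c22 from high to low, and Sec61b, Sec61g and Spcs2 had the order c22, c11, c15. Ssr2 and Spcs3 were highest in c11 and lowest in c15, and Ssr3 was highest in c22 and lowest in c11. The summed level of the 10 genes was 2828, 2912 and 2988 CPM in libraries c11, c15 and c22, against 2430 CPM in mock. Their median coefficient of variation over the knockout libraries was 16.1%, against 19.9% for all genes with a mean of at least 50 CPM.

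Levels between the genes were compared per kilobase of merged exons (GENCODE M21), a length that includes rarely used exons, so the comparison is rough. Per kilobase, Ssr2 and Ssr3 were highest, at 204 ± 55.3 and 174 ± 35.9 CPM in knockout tumours and at 152 and 154 CPM in mock. These neighbours did not differ beyond their spread. Sec61b followed at 91.7 ± 11.7 CPM per kilobase in knockout tumours and 74.4 in mock, and then Sec61a1 at 64.6 ± 2.05 against 46.5. Spcs2, Spcs3, Ssr1 and Sec61g lay between 45.1 and 50.3 CPM per kilobase in knockout tumours, within each other's SD, and between 33.6 and 48.3 in mock. Sec62, at 27.3 ± 5.59 against 20.6 in mock, and Sec63, at 18.3 ± 2.95 against 14.6, were lowest in both groups. The 3 channel subunits form the channel in equal numbers. Per kilobase of merged exons their genes had the order Sec61b, Sec61a1, Sec61g in both groups. The merged lengths were 1271, 6732 and 2464 bases in that order. The order depends on the length used, and whether the numbers of transcripts differ was not tested.

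Several members share sequence with other genes, and the sources used here do not say whether counting kept the strand. The antisense gene Gm44170 lies at the end of Sec61a1 on the opposite strand and overlaps 549 bases of its exons. It was at 126, 115 and 142 CPM in libraries c11, c15 and c22, against 79.5 CPM in mock. Its log2 fold change was 0.68 (SE 0.32), and reads of this pair cannot be told apart if strand was ignored. With both summed, the knockout libraries held 559, 564 and 564 CPM, against 393 CPM in mock, a ratio of 1.43. Gm10177, a transcribed processed pseudogene on chromosome 9 that is 99.1% identical to Sec61g over 424 bases, was at 24.3, 21.8 and 27.0 CPM in the knockout libraries, against 23.5 CPM in mock. With it added, Sec61g stood at 135 ± 20.4 CPM in knockout tumours and 125 CPM in mock. A transcript of Rtraf on chromosome 14 is 98.6% identical to an Ssr2 transcript over 366 bases, and Rtraf was at 147, 136 and 133 CPM, against 108 CPM in mock. Weaker overlaps on the opposite strand were those of 4933429H19Rik with Sec62 (509 exon bases, 53 to 124 counts in knockout libraries and 73 in mock), Gm10704 with Ssr2 (239 exon bases), Gm26860 with Sec63 (173 exon bases, with no counts used here) and Asb5 with Spcs3 (75 exon bases). The levels of Sec61a1, Sec61g and Ssr2 are therefore uncertain, and other copies of Sec61b and Sec61g and Spcs2-ps had at most 21 counts in any library.

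Other genes of the route into the endoplasmic reticulum were described with a list of 64 genes in 9 groups. None of them passed edgeR, against 0% of all genes tested as higher and 0.00637% as lower. At an unadjusted edgeR p under 0.05 there were 3 as higher and 0 as lower, against 1.12% and 2.56% of all genes. DESeq2 called 2 as higher, against 0.306% of all genes. Above mock in all 3 knockout libraries were 28 of the 64, or 43.8%, and below it 8. Of all genes tested 21.4% lay above and 22.2% below, and these shares also stand beside the group counts that follow. The median log2 fold change of the list was 0.24.

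The remaining subunits of the same complexes were mixed. Serp1, which encodes the channel-associated protein RAMP4, was at 447, 480 and 511 CPM in libraries c11, c15 and c22, against 260 CPM in mock (log2 fold change 0.88, SE 0.29, edgeR adjusted p = 1.00). The knockout libraries were close together and far above mock, a larger difference than for any of the 10 genes. Sec61a2, a second pore gene, was at 59.4, 59.6 and 36.7 CPM, against 41.9 CPM in mock, and Serp2 at 2.29, 6.00 and 3.34 CPM, against 3.55 CPM. Ssr4, the delta subunit gene of the translocon-associated complex, was at 106, 88.1 and 110 CPM, against 93.2 CPM in mock, so c15 was again on the other side. Of the other signal peptidase genes, the catalytic subunit genes Sec11a and Sec11c were above mock in all 3 knockout libraries, Sec11a at 80.0 ± 8.73 CPM against 63.1 CPM and Sec11c at 23.1 ± 3.53 CPM against 13.7 CPM (SD, n = 3). Spcs1 was at 83.4 ± 18.0 CPM against 89.1 CPM in mock, with c22 alone above it.

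Genes of targeting and of the chaperones at the channel lay mostly above mock. All 10 genes of the signal recognition particle and its receptor had a positive fitted log2 fold change (median 0.33), and 5 of them lay above mock in all 3 knockout libraries. The receptor gene Srpr was at 179 ± 22.3 CPM against 122 CPM, and Srp68 at 219, 257 and 263 CPM in libraries c11, c15 and c22, against 235 CPM in mock. The particle's GTPase is encoded by near-identical copies in the mouse, of which Srp54b was at 24.9, 52.2 and 10.2 CPM in libraries c11, c15 and c22, against 11.2 CPM in mock, and Srp54c at 21.8 ± 5.01 CPM against 18.6 CPM. Reads may be split between these copies. Among the 11 channel cofactors, all had a positive fitted value (median 0.41) and 8 lay above mock in all 3. Hspa5, the BiP gene, was at 4012, 2846 and 2171 CPM, against 657 CPM in mock, and its exchange factor gene Hyou1 at 687, 596 and 686 CPM, against 167 CPM. These were the 2 genes that DESeq2 called (adjusted p = 6.64e-04 and 3.76e-06), while their edgeR adjusted p were 0.405 and 0.271. At the low end, Ckap4, a rough endoplasmic reticulum membrane protein gene, was at 230 ± 85.3 CPM against 219 CPM and Tram2 at 21.3 ± 6.80 CPM against 18.9 CPM.

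Downstream and parallel routes were described in the same way. Of 12 genes of the oligosaccharyltransferase, which adds sugar chains to proteins as they enter, 6 lay above mock in all 3 knockout libraries and 1 below (median 0.26). Ddost was at 202 ± 24.8 CPM against 128 CPM and Magt1 at 138 ± 14.8 CPM against 90.7 CPM, while Dad1 was at 62.5 ± 7.83 CPM against 77.2 CPM and Ost4 at 97.9 ± 34.5 CPM against 102 CPM. The multipass translocon, which helps proteins with many membrane spans, had a median of -0.11, with 1 of 6 genes above mock in all 3 and 3 below. Nomo1 was at 274 ± 37.9 CPM against 229 CPM and Tmem147 at 61.7 ± 15.8 CPM against 61.9 CPM, whereas Ncln was at 97.9 ± 24.9 CPM against 127 CPM and Tmco1 at 66.5 ± 7.22 CPM against 79.1 CPM. The endoplasmic reticulum membrane complex, another insertase, had a median of 0.06 over 10 genes, with 1 above and 1 below mock in all 3. Its named genes were Emc1 (48.0 ± 25.6 CPM against 32.5 CPM), Emc2 (51.4 ± 5.83 CPM against 45.3 CPM), Emc8 (180 ± 7.93 CPM against 198 CPM) and Emc9 (8, 65 and 6 counts in c11, c15 and c22, against 26 in mock).

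The route for tail-anchored proteins, together with Tmem208, had a median of 0.04 over 8 genes, with 4 above and 3 below mock in all 3. Bag6 was at 283, 321 and 563 CPM in libraries c11, c15 and c22, against 277 CPM in mock, and Get4 at 116 ± 14.8 CPM against 89.9 CPM. Get1, which encodes a receptor subunit of this route, was at 41.3, 61.2 and 29.0 CPM, against 86.6 CPM in mock (log2 fold change -0.98, SE 0.45, edgeR adjusted p = 1.00). All 3 knockout values were below mock, the lowest fold change of the 64 genes. Tmem208 was at 24.7 ± 2.00 CPM against 30.1 CPM.

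For 3 other gene groups of the same organelle the same counts were made. In each group edgeR and limma-voom called 0 genes at an adjusted p of 0.05. Among all genes tested, DESeq2 called 0.306% as higher, and 21.4% lay above mock in all 3 knockout libraries. Chaperones and folding enzymes had a median log2 fold change of 1.22 over 19 genes, with 16 above mock in all 3 knockout libraries, and DESeq2 called 8 of them as higher. Creld2 was at 180 ± 35.4 CPM against 29.8 CPM and Sdf2l1 at 178 ± 36.4 CPM against 29.4 CPM, while the oxidase gene Ero1l was at 162 ± 66.4 CPM against 306 CPM and the disulfide isomerase gene P4hb at 1374 ± 191 CPM against 1285 CPM. Genes of degradation at the organelle had a median of 0.49 over 17 tested, with 13 above mock in all 3 and 4 called as higher by DESeq2. Herpud1 was at 220 ± 67.4 CPM against 51.1 CPM and Sel1l at 266 ± 47.4 CPM against 71.9 CPM, and at the low end Edem2 was at 37.1 ± 11.7 CPM against 35.4 CPM and Faf2 at 98.2 ± 7.26 CPM against 82.7 CPM. COPII is the coat that carries proteins onward to the Golgi, and its list also held genes outside the coat itself, such as Sec22b. The list had a median of 0.33 over 14 genes, near that of the 10, with 10 above mock in all 3. Its highest fold change was that of Sec24d, at 152 ± 44.6 CPM against 62.9 CPM, followed by Sec22b at 116 ± 41.5 CPM against 66.0 CPM, and its lowest were those of Sec16b, at 11.2 ± 8.83 CPM against 14.8 CPM, and Sec24b, at 113 ± 12.5 CPM against 120 CPM. Hspa5, Hyou1 and Dnajb11 stand in both the chaperone list and that of the channel cofactors. These lists were compared by counts and medians only, and whether they differ from the 10 genes was not tested.

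**Figure D4:**
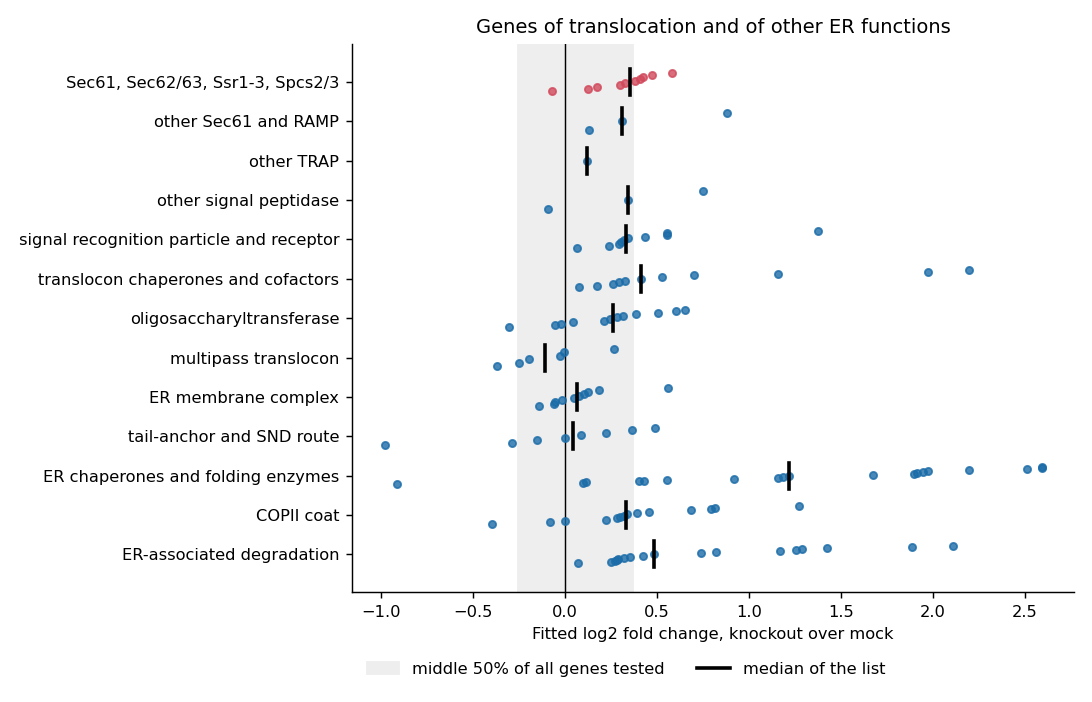
Fitted log2 fold change (knockout over mock) of each gene tested, 1 point per gene, for the 10 genes (top row, red), the groups of the 64 other translocation genes and 3 other endoplasmic reticulum lists, with the list median as a black bar and the middle 50% of all genes in grey. The 10 genes spread from -0.07 to 0.58, while the chaperone genes reach 2.59.

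The mean profile of the 10 genes over the 4 libraries (log2 of CPM with 0.5 added, centred per gene) was 0.07, 0.05 and 0.10 in c11, c15 and c22, against -0.22 in mock. Among 7690 other genes whose mean reached 20 CPM, the 5 nearest to it by root mean square distance were Acot9, Ap3b1, Ube2a, Stt3a and Sik3, at distances from 0.02 to 0.03. Stt3a encodes a catalytic subunit of the oligosaccharyltransferase that works at the channel, and it was at 283, 288 and 295 CPM in libraries c11, c15 and c22, against 233 CPM in mock. The 10 genes themselves lay at distances from 0.09 for Sec61a1 to 0.29 for Ssr2. The 5 genes were picked for their small distance, so no comparison of the 2 sets is made.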

How the data were processed

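Poly(A) RNA of 4 tumour samples was sequenced from directional libraries, per the labels' protocols. The deposited table holds the authors' whole-number, unscaled counts for Ensembl genes in each library. The build GRCm38 is named by the submitters' processing notes, as are featureCounts 1.6.3, SAMtools 1.9, HISAT2 2.1.0, Trimmomatic 0.38 and FastQC 0.11.7, without settings in the sources used here. From the counts, genes kept by edgeR's filterByExpr (15706, 99.9% of counts) were TMM-scaled, and edgeR 4.0.16 (R 4.3.3) fitted its robust quasi-likelihood model, whose p-values were adjusted after Benjamini and Hochberg across all genes. The fit had 2 residual degrees of freedom, moderated with 3.77 prior ones. DESeq2 1.42.0 and limma 3.58.1 (voom) were alternatives. SEs come from the F statistic. Pairs of libraries differed far beyond sampling noise (chi-square per gene 44.3 to 82.8). The smallest value was that of mock with c15 and the largest that of 2 knockout libraries, c15 with c22. With 0 counts a level of up to 0.228 to 0.233 CPM remains possible in knockout libraries and 0.242 CPM in mock, from counting error only. The test was tried on simulated counts of 15242 genes for knockout against mock. Of 100 genes given a 4-fold change 42 were called, and of 100 given a 16-fold change 96, with 3 false calls. Smaller changes were not simulated. Each simulated gene took its spread from the fitted trend over level, with none of its own, so these call rates may not hold for the data. Copies were sought with BLAST 2.17.0 among GENCODE M21 transcripts (identity of at least 95% over at least 200 bases).

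The members and lists were chosen with earlier results of these data known. Named were Hif1a, the 10 genes, all genes of groups of at most 4, the 2 highest and 2 lowest fold changes (mean of at least 1 CPM) of larger pathway and compared lists and the 5 nearest profiles without predicted genes. Of the marker lists, Runx2, Sp7, Bglap, Col1a1, Alpl, Lyz2, Pdgfra, Jchain and Mzb1 were named outside this rule, after their values were seen. Gm44170, Gm10177 and Rtraf were named after the search for copies, and the Hspa5 promoter after its motif was seen.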

Additional observations from a re-analysis of the deposited data

How the results depend on the processing

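With edgeR, 0 genes were called as higher and 1 as lower over the whole table. DESeq2 called 48 and 66, no filter on low counts gave 4 lower, and limma-voom and edgeR's legacy quasi-likelihood method each gave 0 lower. With each knockout library left out in turn, 0 genes were called lower (0 to 0). The call counts of the 10 genes were 0 under all alternatives, with edgeR, DESeq2 or limma-voom adjusted p from 0.606 to 1.00. The count of genes above mock in all knockout libraries was 6 under each scaling, filter and tool run, and 6 to 8 with 1 knockout library left out. This count uses scaled levels alone, so runs that share a scaling must give the same count. With a library left out, fewer libraries have to lie above mock, so the count can hardly fall. The median log2 fold change of the 10 genes was 0.31 to 0.39 with 1 library left out. With 1 library left out, log2 fold changes ran from -0.01395 to 0.2071 for Sec61g and from -0.1614 to 0.02161 for Ssr1, whose signs turned without c22, and the cause was not tested. Values also moved by over 1.5 times for Sec61b (0.20 without c22), Sec62 (0.23 without c15), Ssr2 (0.27 without c11) and Ssr3 (0.34 without c11, 0.10 without c15 and 0.07 without c22). Without a filter the median of all genes was 0.11. Scaling by total counts alone and the legacy method were added after the data were seen. The 10 genes had from 1108 counts upward in mock. The single mock library and the spread among the knockout libraries (common biological coefficient of variation 0.442, 2 residual degrees of freedom) both enter the intervals, and their shares were not tested. No paired analysis was possible because mock had 1 library and the columns carry no replicate number.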
